A study of Mus musculus with 238 samples.

Results

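The genes described here are 9 of the 21076 in the deposited count table: Dcx, Sox11, Sox4, Igfbpl1, Cd24a, Dlx1 and Dlx2, which mark newborn neurons and the cells that form them, and Mki67 and Top2a, which mark dividing cells. They were chosen by name, and the table holds a row for each of them. The study measured bulk RNA in 15 brain regions of C57BL/6JN mice aged 19 months, with 238 libraries in all. In the diet experiment, with 131 brain libraries, 5 female mice were dietary restricted (aDR) and 4 were fed freely (AL, ad libitum), and 9 liver libraries came from the same mice, where the restricted group is labelled DR. In the plasma experiment, with 98 brain libraries, 3 male mice received young mouse plasma (YMP) and 4 received saline (PBS), both injected behind the eye. The labels name no transgene or targeted allele. Sex was the same as experiment, so the effects of sex and of experiment cannot be told apart, and every test was made within an experiment. A few region groups lack 1 or 2 mice, and the corpus callosum was the smallest, with 2 YMP libraries.

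The adult mouse brain makes new neurons chiefly in the walls of the lateral ventricles (the subventricular zone) and in the dentate gyrus of the hippocampus. Stem cells there give rise to dividing progenitors and then to neuroblasts; those of the subventricular zone migrate to the olfactory bulb and become inhibitory interneurons, while those of the dentate gyrus become granule neurons in place. Production falls steeply with age. The labels give one region as SVZ, the usual short form for the subventricular zone, and divide the hippocampus into an anterior and a posterior piece.

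Dcx encodes doublecortin, a microtubule-binding protein of migrating young neurons, and lies on chrX:143855842-143933311 of build GRCm38 (minus strand). Sox11 (chr12:27334264-27342574, minus) and Sox4 (chr13:28948919-28953713, minus) are single-exon genes for transcription factors of immature neurons. Igfbpl1 (chr4:45809468-45826923, minus) encodes a secreted protein related to the insulin-like growth factor binding proteins. Cd24a (chr10:43578284-43584265, plus) encodes a surface protein of neuroblasts that ependymal cells, the ciliated lining of the ventricles, also carry. Dlx1 (chr2:71528113-71533981, plus) and Dlx2 (chr2:71543408-71546754, minus) encode homeodomain factors of the inhibitory neuron lineage and face each other across 9426 bases. Mki67 (chr7:135689784-135716361, minus) encodes the Ki-67 protein of dividing cells, and Top2a (chr11:98992943-99024189, minus) the topoisomerase that untangles DNA before division. Dlx1 overlaps the antisense gene Dlx1as, which has up to 579 counts in a library; the libraries carry no strand, so reads of the overlap cannot be assigned and the level of Dlx1 is uncertain to that extent.

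Promoter windows, from 250 bases before to 50 after the start of the gene, were found in RefSeq (build GRCm38.p6) for 7 of the 9 genes. Of these, 4 are shown, those of the cell cycle pair and of the neuroblast genes Dcx and Dlx2. The 4 motifs named next were searched on both strands and stand in capitals. The first is CCAAT, the box bound by the NF-Y factor, whose reverse complement reads ATTGG. The next is TTTGAA, the core of an element found in promoters of many cell cycle genes, whose reverse complement reads TTCAAA. The others are TAATTA, the core that homeodomain proteins bind, and the E-box form CACGTG, a site of basic helix-loop-helix factors. Those last 2 read the same on both strands, and no motif overlaps another in these windows.
Mki67 (minus strand, chr7:135716330-135716629): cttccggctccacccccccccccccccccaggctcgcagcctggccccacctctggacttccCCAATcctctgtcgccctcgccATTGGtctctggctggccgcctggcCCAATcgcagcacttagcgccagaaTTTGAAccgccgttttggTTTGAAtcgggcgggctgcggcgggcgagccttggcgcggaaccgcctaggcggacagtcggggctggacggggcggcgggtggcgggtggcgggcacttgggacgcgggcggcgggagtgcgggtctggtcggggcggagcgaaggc
Top2a (minus strand, chr11:99024140-99024439): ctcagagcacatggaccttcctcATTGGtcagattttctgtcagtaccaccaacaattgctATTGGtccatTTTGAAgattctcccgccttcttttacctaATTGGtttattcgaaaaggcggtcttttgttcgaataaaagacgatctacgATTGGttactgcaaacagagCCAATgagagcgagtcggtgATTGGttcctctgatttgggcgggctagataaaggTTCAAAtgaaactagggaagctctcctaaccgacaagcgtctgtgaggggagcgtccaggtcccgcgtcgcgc
Dcx (minus strand, chrX:143933170-143933469): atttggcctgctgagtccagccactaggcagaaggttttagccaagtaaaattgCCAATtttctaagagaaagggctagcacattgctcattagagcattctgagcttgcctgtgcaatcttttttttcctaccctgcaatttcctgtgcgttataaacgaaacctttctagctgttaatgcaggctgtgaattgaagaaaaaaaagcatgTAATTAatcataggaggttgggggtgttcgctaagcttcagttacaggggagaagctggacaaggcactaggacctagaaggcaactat
Dlx2 (minus strand, chr2:71546705-71547004): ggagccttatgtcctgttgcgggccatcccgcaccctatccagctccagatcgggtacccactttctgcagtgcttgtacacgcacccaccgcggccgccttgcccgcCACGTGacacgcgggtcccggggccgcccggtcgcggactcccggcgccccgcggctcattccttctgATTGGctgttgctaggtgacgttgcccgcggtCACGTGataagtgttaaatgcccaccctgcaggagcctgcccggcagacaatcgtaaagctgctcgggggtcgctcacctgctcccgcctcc
The Mki67 window holds 3 CCAAT boxes and 2 TTTGAA cores, and the Top2a window holds 6 and 2. Of all 32851 promoter windows of this length, 37.4% hold a CCAAT box, 1.06% hold 4 or more, and 17.9% hold a TTTGAA core. Neither of these windows holds TAATTA or CACGTG. The Dcx window shown holds 1 CCAAT and 1 TAATTA, the latter found in 5.29% of windows. A second Dcx window, at another start and not printed, also holds 1 CCAAT and 1 TAATTA. The Dlx2 window holds 2 CACGTG, and 7.15% of windows hold at least 1. The Sox4 window, not printed, holds 4 CCAAT boxes, that of Sox11 holds 1 CCAAT and 1 TTTGAA, and that of Dlx1 holds none of the 4 motifs. These are matches of letters only.

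Depth differed widely: the libraries held from 0.606 to 32.4 M counts (M, mega), the median was 8.44 M, and 6 fell short of 2 M. SVZ libraries held 2.36 to 21.9 M and olfactory bulb libraries 0.606 to 14.6 M, 2 of them under 2 M. Levels are given as CPM, counts scaled to a library total of 1 M, so that a gene with 3 counts in a library of the median depth lies under 1 CPM. PCR reads without molecular identifiers are not independent molecules, so limits drawn from counts cover counting error only. Differences are log2 differences from a fit over all genes, with their standard errors (SE), and a gene is called when its p-value, adjusted over all genes tested (Benjamini-Hochberg), is under 0.05. In bulk tissue, fewer cells of a type and less RNA per cell cannot be told apart. Of the marker lists, summed olfactory bulb neuron markers were highest in the olfactory bulb (median 2533 CPM) and cell cycle genes in the SVZ (190 CPM). Dentate granule neuron markers were highest in liver (761 CPM) and then in the anterior hippocampus (554), ependymal markers in liver (841) and then in the SVZ (465), and the neuroblast list in the cerebellum (3496), with the SVZ (1946) at number 11 of the 16 tissues. The labels name mice and regions but no batch.

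The levels in the control mice (AL and PBS together) show where each gene is found in the aged brain. These pooled values mix females of the diet and males of the plasma experiment, so their SDs include any difference between the experiments. Dcx was highest in the olfactory bulb, with 153, 184 and 237 CPM as the lowest, median and highest of 8 control mice. The next region was the visual cortex, at 30.3 ± 3.37 CPM (mean ± SD, n = 7), followed by the SVZ, with a lowest, median and highest of 13.1, 26.3 and 37.6 CPM. No olfactory bulb came near a library of another region, whereas the SVZ, the motor cortex (23.8), the entorhinal cortex (23.4) and the hypothalamus (21.8) lay within one another's spread. The posterior hippocampus held 16.7 ± 6.17 CPM of Dcx (n = 7) and the anterior 9.54 ± 2.96 (n = 8), while the caudate putamen held 6.59 and the cerebellum 4.11. Liver, which makes no neurons, had 0.213 ± 0.19 CPM (n = 4), at most 3 counts in a library.

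Sox4 and the Dlx pair were also highest in the olfactory bulb, and for these genes the SVZ mean was above that of every remaining region. Sox4 ran from 137 to 158 CPM (median 144) in the olfactory bulb and from 47.8 to 66.1 (median 55.2) in the SVZ. The corpus callosum came next, at 32.7 ± 8 CPM (n = 6), and each of these steps exceeded the SDs of its neighbours. Dlx1 was nearly constant in the olfactory bulb, from 212 to 223 CPM (median 219), and spread from 17.7 to 106 (median 82.1) in the SVZ. Dlx2 ran from 83.4 to 102 CPM (median 88.6) and from 7.26 to 38.5 (median 29.9) in the same regions. The hypothalamus, whose inhibitory neurons keep Dlx genes on in the adult, came next for both, at 42.5 ± 8.46 CPM of Dlx1 and 17.9 ± 4.08 of Dlx2 (n = 7). PBS mouse 72 held the lowest SVZ value of both Dlx genes, and the next lowest SVZ value of Dlx1 in a control mouse was 53.1 CPM.

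Igfbpl1 was found mainly in the SVZ and the olfactory bulb, in the reverse order of Dcx. It ran from 2.33 to 31.7 CPM (median 15.8) in the SVZ and from 4.20 to 7.86 (median 6.28) in the olfactory bulb. The corpus callosum held 2.01 ± 1.56 CPM (n = 6), the anterior hippocampus 0.0694 and the posterior hippocampus 0.0311, and no count was found in any control library of the entorhinal cortex, motor cortex, pons or liver. A count of 0 allows up to 3 counts, so low levels there were not detectable at this depth. Sox11 was spread more evenly. The entorhinal cortex (70.1 ± 17.9 CPM), SVZ (67.2 ± 11.6), posterior hippocampus (60.4 ± 12.8), anterior hippocampus (56.6 ± 11.5) and hypothalamus (54.3) lay within one another's spread, the olfactory bulb held 47.0 ± 5.10, and the cerebellum was lowest in the brain, at 9.16.

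Cd24a was highest in the medulla by the mean, 47.9 CPM, but the 8 medulla libraries ran from 11.9 to 144 (median 33.9). Every PBS medulla lay above every AL medulla, so this rank rests on the PBS mice. Sex and experiment cannot be told apart there. The SVZ (35.1 ± 4.18 CPM) and olfactory bulb (27.6 ± 1.65) were steadier, and both hippocampal pieces were low, at 3.97 in the anterior and 3.50 in the posterior. The cell cycle pair was scarce everywhere. Mki67 was higher in liver (8.39 ± 2.85 CPM, n = 4) than in the brain regions, where the SVZ (2.91 ± 0.989) and the anterior hippocampus (2.90 ± 0.972) led, followed by the corpus callosum (2.15 ± 1.27), posterior hippocampus (1.47 ± 0.471), caudate putamen (1.33 ± 0.358) and olfactory bulb (1.11 ± 0.657). Top2a was alike in liver (5.10 ± 2.30) and SVZ (4.93 ± 1.47), lower in the corpus callosum (3.24 ± 0.941) and olfactory bulb (1.36 ± 0.644), and under 1 CPM in the anterior (0.770) and posterior (0.521) hippocampus. The 2 dividing-cell genes thus part ways in the anterior hippocampus, which ranks number 3 for Mki67 and number 10 for Top2a among the 16 tissues.

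**Figure D1:**
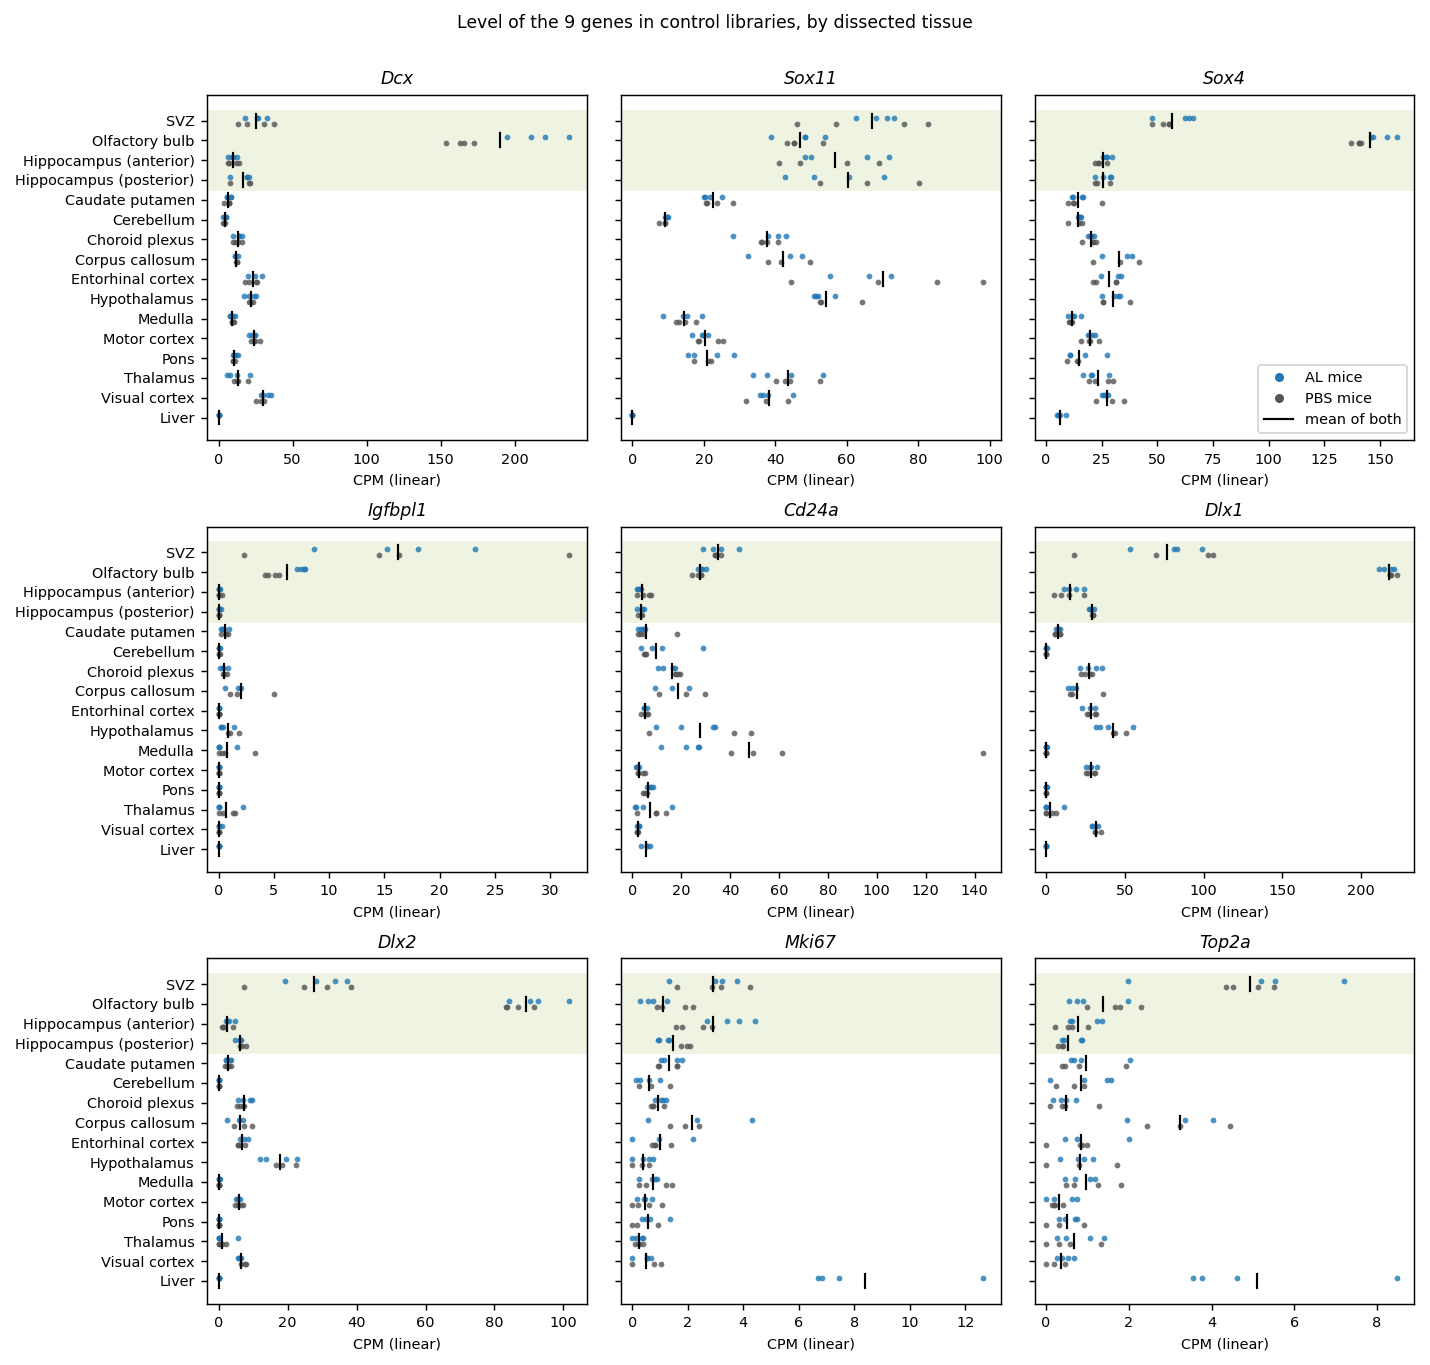
Level of each of the 9 genes in the control libraries by tissue, in CPM on a linear axis; points are single libraries (AL blue, PBS grey), bars the mean of both, and the SVZ, olfactory bulb and hippocampal pieces are shaded. Dcx, Sox4, Dlx1 and Dlx2 peak in the olfactory bulb (Dcx 153 to 237 CPM), Igfbpl1 in the SVZ (2.33 to 31.7), and Mki67 in liver.

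Genes can be compared with one another only per length of transcript. Per kilobase of exon, the olfactory bulb held 40.4 CPM of Dlx1, 31.3 of Dlx2, 30.3 of Sox4, 15.0 of Dcx, 10.7 of Cd24a, 5.66 of Sox11 and 1.90 of Igfbpl1. Top2a (0.151) and Mki67 (0.111) were far below. The SVZ held 14.2 CPM per kilobase of Dlx1, 13.6 of Cd24a, 11.8 of Sox4, 9.65 of Dlx2, 8.08 of Sox11, 5.00 of Igfbpl1 and 2.02 of Dcx, with 0.547 of Top2a and 0.289 of Mki67. In both regions the Dlx and Sox4 transcripts thus outnumbered those of Dcx per length, and the dividing-cell genes came last.

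The SVZ was then set against the mean of the 11 brain regions other than the olfactory bulb and hippocampus, in edgeR fits of each experiment. These fits, used for the region contrasts below unless another is named, hold no term for the mouse. Their SEs and p-values treat the regions of 1 mouse as independent. They also take 1 spread per gene for regions whose spread differs. The very small p-values are thus not to be taken at face value. All 9 genes were called higher in the SVZ in both experiments. Regions of the brain differ in most genes: this contrast called 52.2% of all genes tested in the diet and 49.9% in the plasma experiment, and called 29.4% and 28% higher, so the count is read against that background. The lowest difference was that of Dcx, 0.77 ± 0.10 (log2 ± SE, adjusted p = 8.1e-11) in the diet and 1.01 ± 0.12 (1.1e-10) in the plasma experiment. Sox11 followed, at 1.12 ± 0.09 and 1.21 ± 0.10, then Sox4, at 1.36 ± 0.09 and 1.58 ± 0.09. Cd24a was higher by 2.11 ± 0.19 and 1.97 ± 0.20. Mki67 differed by 2.18 ± 0.23 and 2.56 ± 0.25, and Top2a by 2.86 ± 0.21 and 3.26 ± 0.25. The fits gave 4.24 and 4.20 for Dlx1, 4.30 and 4.33 for Dlx2 and 6.78 and 6.18 for Igfbpl1, but these average logs over regions with almost no counts and are not bounds.

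Ratios within a mouse average CPM in place of logs. They divide the CPM of a region by the mean CPM of those of the 11 other regions that the animal has. Some mice lack a library of some of these regions, the corpus callosum among them, and their means leave it out. For Igfbpl1 the median ratio in the SVZ was 52.1 over 9 diet mice and 26.3 over 7 plasma mice. Its divisor is still small, and the ratios ran from 13.1 to 158 and from 5.23 to 37.4. Dlx1 had 4.88 and 4.40, Dlx2 5.98 and 5.94, Top2a 6.04 and 7.89, Mki67 4.02 and 5.72, Cd24a 3.32 and 2.44, Sox4 2.56 and 2.90, and Sox11 2.01 and 2.16. The SVZ value of Top2a exceeded the highest of those regions that the mouse has in 8 of 9 diet and 5 of 7 plasma mice. For Dcx the ratio was 1.47 and 1.91, and the SVZ lay above the mean of the other regions in 8 of 9 and 6 of 7 mice. Dcx, the usual marker of neuroblasts, thus had the smallest difference and the smallest ratio of the 9 genes, and the cortex and hypothalamus hold it at levels near that of the SVZ.

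Lists of related genes differed as well, the neuroblast list in both directions. Of 24 neuroblast and immature neuron genes other than the 9, 13 were higher and 6 lower in the SVZ of the diet mice. Their median was 0.61, against 0.01 over all genes. In the plasma mice 13 were higher and 6 lower of 23 tested (median 0.39 against 0.02). The contrast called 29.4% and 28% of all genes higher. The summed level of this list was highest in the cerebellum, with the SVZ at number 11 of the 16 tissues. The 4 genes of the list with the smallest adjusted p in the diet mice were all higher, and its lower genes are not named here. They were Sp8, a factor of olfactory bulb interneurons (5.02), Dlx5 (3.96), Sp9 (3.16) and the non-coding Dlx6os1 (3.18). Of 19 neural stem and intermediate progenitor genes, 12 were higher and 0 lower in the diet and 10 higher and 1 lower in the plasma mice, among them Thbs4 (4.17), a product of ventricular astrocytes, Sox2 (0.94) and Sox9 (0.90), factors of stem cells and glia, and Eomes (5.83), a factor of progenitors of excitatory neurons that projection neurons of the olfactory bulb also express. Of the cell cycle genes, 22 of 28 tested were higher and 0 lower in the diet mice (median 0.85), and 26 of 29 higher and 0 lower in the plasma mice (median 0.99). Rrm2, the ribonucleotide reductase subunit of S phase, was higher by 1.64 and 1.95, Ube2c, a ubiquitin-conjugating enzyme of mitosis, by 2.82 and 3.19, Pbk, a mitotic kinase, by 2.97 and 4.24, and Cdk1 by 2.59 in the diet mice.

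The caudate putamen lies beside the SVZ and is the closest region to compare. All 9 genes were called higher in the SVZ than in the caudate putamen in both experiments. There 49.5% and 37.6% of all genes were called, and 25.9% and 20.7% were called higher. Dcx differed by 1.72 ± 0.15 and 1.92 ± 0.19, Top2a by 2.77 ± 0.36 and 3.35 ± 0.46, and Mki67 by 1.10 ± 0.33 (adjusted p = 0.0039) and 1.77 ± 0.38 (0.00012). With the control mice alone Mki67 was not called in either experiment (0.92, adjusted p = 0.083, and 1.14, 0.075). Cd24a was higher by 2.71 and 2.85, Igfbpl1 by 4.55 and 4.04, and Dlx1 by 3.15 and 2.83. Cell cycle genes were higher for 23 of 28 in the diet and 26 of 29 in the plasma mice, with 0 lower in either.

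The olfactory bulb, where the SVZ neuroblasts settle, stood farther from the other regions than the SVZ did in Dcx, Sox4, Dlx1 and Dlx2, and less far in Sox11, Igfbpl1, Cd24a and the cell cycle pair. Against the 11 other regions, 8 of the 9 genes were called higher in the diet and all 9 in the plasma experiment, where 72.9% and 68.4% of all genes were called and 35.8% and 36.1% called higher. Dcx was higher by 3.93 ± 0.07 (adjusted p = 5.3e-76) and 3.52 ± 0.10 (1.8e-45), and its within-mouse ratio was 14.4 (11.4 to 15.6 over the 9 diet mice) and 10.5 (9.08 to 12.1 over the 7 plasma mice). Sox4 was higher by 2.70 ± 0.08 and 2.67 ± 0.09, Sox11 by 0.74 and 0.60, and Cd24a by 1.73 and 1.58. The within-mouse ratios of Dlx1 were 13.6 and 12.6, those of Dlx2 19.7 and 16.4, and those of Igfbpl1 26.7 and 10.5. The olfactory bulbs of AL mice (195 to 237 CPM of Dcx) lay above those of PBS mice (153 to 173), but sex and experiment cannot be told apart there.

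The dividing-cell genes of the olfactory bulb rested on single mice. Mki67 did not pass in the diet experiment (0.14 ± 0.29, adjusted p = 0.70 with edgeR) and was called in the plasma experiment (1.41 ± 0.30). Of the 3 YMP olfactory bulbs, mouse 81 had 3.84 CPM and mice 73 and 77 had 0 counts, in libraries of 0.606 and 3.59 M counts, which allows 4.95 and 0.835 CPM. Without mouse 81 the plasma value of Mki67 became -2.03 and was not called, and that of Top2a, 1.55 ± 0.33 with all mice, became 0.55 with an adjusted p of 0.57. Top2a in the diet mice, 0.82 ± 0.28 (adjusted p = 0.0067), became 0.59 (0.075) without aDR mouse 61 and 0.61 (0.085) without AL mouse 68, and was 0.25 (0.58) in the control mice alone. Of the cell cycle genes, 8 were higher and 4 lower of 28 in the diet mice (median -0.11 against -0.04 over all genes), and 9 higher and 2 lower of 29 in the plasma mice.

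Direct contrasts of the SVZ with the olfactory bulb divided the 9 genes. In the SVZ, Dcx was lower, at -3.16 ± 0.14 (log2) in the diet and -2.52 ± 0.17 in the plasma mice, Dlx1 at -1.56 and -1.78, Dlx2 at -1.69 and -1.83, and Sox4 at -1.34 and -1.09. Higher in the SVZ were Mki67, by 2.04 ± 0.37 and 1.15 ± 0.38, Top2a, by 2.04 ± 0.35 and 1.71 ± 0.41, and Sox11, by 0.39 and 0.61. Cd24a did not pass (0.38 ± 0.29, 95% interval -0.19 to 0.95, and 0.39 ± 0.31, interval -0.23 to 1.02). Igfbpl1 was higher in the SVZ of the diet mice (1.0 ± 0.36, adjusted p = 0.011) and missed the threshold in the plasma mice (0.97 ± 0.48, adjusted p = 0.073); with the mouse as a replicate block it was called, at 1.07 (adjusted p = 0.029). The diet call was lost with DESeq2 (0.98, adjusted p = 0.18), with the control mice alone (1.17, 0.059) and without aDR mouse 65 (0.79, 0.070). The plasma call of Mki67 was lost with the control mice alone (0.96, 0.086), without YMP mouse 77 (0.82, 0.081) and without the 4 SVZ libraries with high striatal markers described below (0.85, 0.12), and its value became 4.84 without YMP mouse 81. These contrasts called 69.7% and 63.8% of all genes, and called 38.7% and 33% higher in the SVZ. Of the cell cycle genes, 21 of 28 were higher in the SVZ and 2 lower in the diet mice, and 19 of 29 higher and 0 lower in the plasma mice, whereas of the neuroblast list 14 of 24 and 13 of 23 were lower.

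The hippocampus gave a different pattern. In the anterior piece, 7 of the 9 genes were called in each experiment, 5 higher and 2 lower than the 11 other regions. There 47.6% and 38.9% of all genes were called, and 25.1% and 20.6% were called higher. Dcx was lower there, at -0.51 ± 0.12 and -0.45 ± 0.14, and 0 of 9 diet and 0 of 7 plasma mice had more Dcx in the anterior hippocampus than in the mean of their other regions. Cd24a was lower, at -1.41 and -1.10. The fits gave 2.24 and 2.29 for Dlx1 and 1.39 and 1.15 for Dlx2, both called higher. These values average logs over regions near 0, and the within-mouse ratios differ. For Dlx1 the ratios were 1.17 and 0.948, and for Dlx2 0.585 and 0.572. Dlx2 lay above the mean of the other regions in only 2 of 9 and 1 of 7 mice. With the control mice alone Dlx2 was not called (0.92, adjusted p = 0.083, and 0.63, 0.33, edgeR). Sox4 was called at 0.25 ± 0.11 (adjusted p = 0.049) and 0.27 ± 0.11 (0.038), but stayed called in only 3 of 15 alternatives in the diet and 6 of 13 in the plasma experiment. With the control mice alone, 3 genes in place of 7 were called in the plasma experiment, and Dcx (-0.34, adjusted p = 0.27) and Cd24a (-0.79, 0.20) were not among them. Mki67 was higher by 1.98 ± 0.25 (adjusted p = 4.6e-11) and 1.67 ± 0.28 (6.4e-07), with within-mouse ratios of 3.29 and 2.84 that lay above 1 in 9 of 9 and 7 of 7 mice. Top2a did not move with it: its differences were 0.51 ± 0.32 (interval -0.12 to 1.13, adjusted p = 0.19) and -0.17 ± 0.43 (interval -1.03 to 0.70, adjusted p = 0.83). Mki67 is counted there from 5 to 40 reads a library. Cell cycle genes as a list were mixed. Of 28 in the diet mice, 6 were higher and 4 lower, and of 29 in the plasma mice, 3 were higher and 6 lower.

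In the posterior piece 7 genes were called in the diet mice (6 higher, 1 lower) and 5 in the plasma mice (4 higher, 1 lower). This compares with 44.1% and 41% of all genes called, and 25.4% and 22.1% called higher. Sox11 was higher by 1.09 and 1.04, Dlx1 by 2.92 and 3.18, Dlx2 by 2.16 and 2.34 and Mki67 by 1.15 and 1.47. With the control mice alone the diet value of Mki67 was 0.59 and not called (adjusted p = 0.22). The Dlx values again average over regions near 0; the within-mouse ratios of Dlx1 were 1.82 and 1.70 and those of Dlx2 1.18 and 1.25. Cd24a was lower, at -1.32 and -1.72. Dcx was higher in the diet mice (0.38 ± 0.10, adjusted p = 0.0018; 0.37 and 0.075 with the AL mice alone) and did not pass in the plasma mice (0.13 ± 0.14, interval -0.15 to 0.41). Of the neuroblast list, 11 of 24 and 11 of 23 genes were higher and 2 lower in each experiment (medians 0.29 and 0.27), while cell cycle genes were higher for 2 and lower for 6 of 28, and higher for 3 and lower for 8 of 29.

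**Figure D2:**
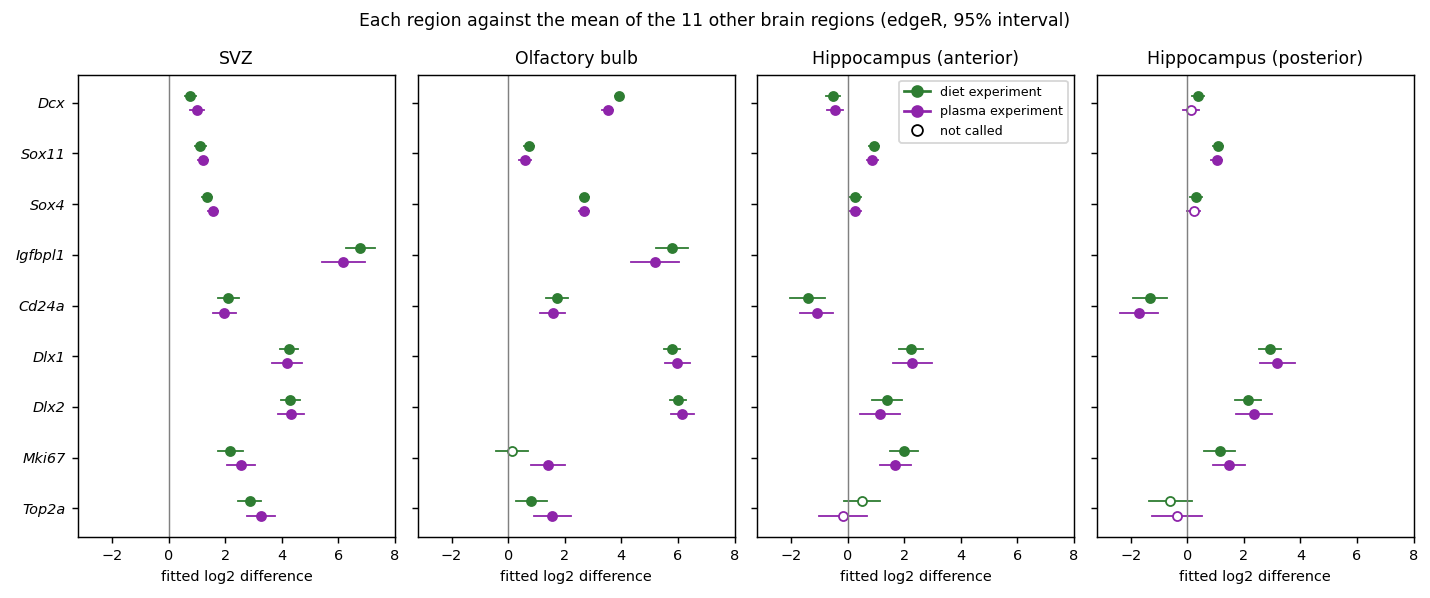
Fitted log2 differences of the SVZ, olfactory bulb and anterior and posterior hippocampus from the mean of 11 other brain regions, with 95% intervals (diet green, plasma purple, open symbols not called); Igfbpl1 is left out of the hippocampal panels, where it has almost no counts. All 9 genes lie above 0 in the SVZ, Dcx from 0.77 to 1.01, and Dcx and Cd24a lie below 0 in the anterior hippocampus.

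The posterior hippocampus was above the anterior in Dcx and the Dlx genes. Dcx differed by 0.89 ± 0.15 (adjusted p = 5.6e-06) in the diet and 0.58 ± 0.19 (0.042) in the plasma mice, and Dlx2 by 0.77 ± 0.28 (0.034) and 1.19 ± 0.36 (0.024). Dlx1 was called in the diet mice (0.68 ± 0.23, adjusted p = 0.026) and not in the plasma mice (0.89 ± 0.34, 0.095). In all, 3 of 9 and 2 of 9 genes were called, beside 20.9% and 8.47% of all genes, of which 12.3% and 4.85% were called higher. With 1 mouse left out at a time these counts ran from 1 to 3 in the diet and from 0 to 3 in the plasma experiment. Mki67 lay the other way without passing (-0.83 ± 0.35, adjusted p = 0.080, and -0.20 ± 0.38, 0.84), but in the AL mice alone it was called, at -1.64 (0.012). In the control mice alone the diet values of Dlx1 (0.81, adjusted p = 0.14) and Dlx2 (1.0, 0.13) and the plasma value of Dcx (0.68, 0.13) were not called. Stmn2 (0.64) and Tubb3 (0.64), cytoskeletal genes of neurons, were also higher in the posterior piece of the diet mice. They were picked for small adjusted p-values and do not stand for a list as a whole.

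Libraries of the SVZ differed from one another more than those of the olfactory bulb, and did so in several genes at once. Dcx was 25.7, 17.7, 27.0 and 32.6 CPM in AL mice 63, 66, 68 and 69, and 12, 24.1, 23.4, 19.6 and 28.9 in aDR mice 61, 62, 64, 65 and 67. It was 13.1, 19.5, 30.9 and 37.6 in PBS mice 72, 76, 80 and 84, and 29.1, 26.2 and 34.3 in YMP mice 73, 77 and 81. All 4 groups overlap. Igfbpl1 was 15.3, 8.63, 18.0 and 23.2 CPM in the AL mice and 11.2, 12.8, 3.55, 18.1 and 11.7 in the aDR mice, in the same orders. It was 2.33, 14.5, 16.3 and 31.7 in the PBS mice and 5.31, 4.64 and 8.41 in the YMP mice, so the YMP values sit inside the wide range of the PBS values.

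The SVZ libraries with little Igfbpl1 and Dlx1 held more RNA of striatal neurons. The summed level of 8 markers of striatal projection neurons, the main neurons of the caudate putamen, was 4032 to 5262 CPM in aDR mouse 64, PBS mouse 72 and YMP mice 73 and 77, and at most 2537 CPM in the 12 other SVZ libraries. In those 4 libraries Igfbpl1 was 3.55, 2.33, 5.31 and 4.64 CPM, below every other SVZ library, and Dlx1 was 29.3, 17.7, 46.0 and 28.1 CPM. The caudate putamen itself had a median sum of 7541 CPM, and the corpus callosum libraries, whose Sox4, Igfbpl1 and Top2a came next after the SVZ or olfactory bulb, had 4487. Mki67 and Top2a were not low in those 4 libraries: Mki67 was 4.99, 3.20, 6.33 and 5.74 CPM, beside 0.73 to 4.23 in the others. Ttr, the choroid plexus transcript for transthyretin, also varied, from 0.1 to 3.6 CPM in the YMP and from 2602 to 18358 CPM in the PBS mice. Without those 4 libraries, all 9 genes were still called higher in the SVZ than in the 11 other regions and than in the caudate putamen, in both experiments; the part of these markers in the spread of the 9 genes was not tested.

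**Figure D3:**
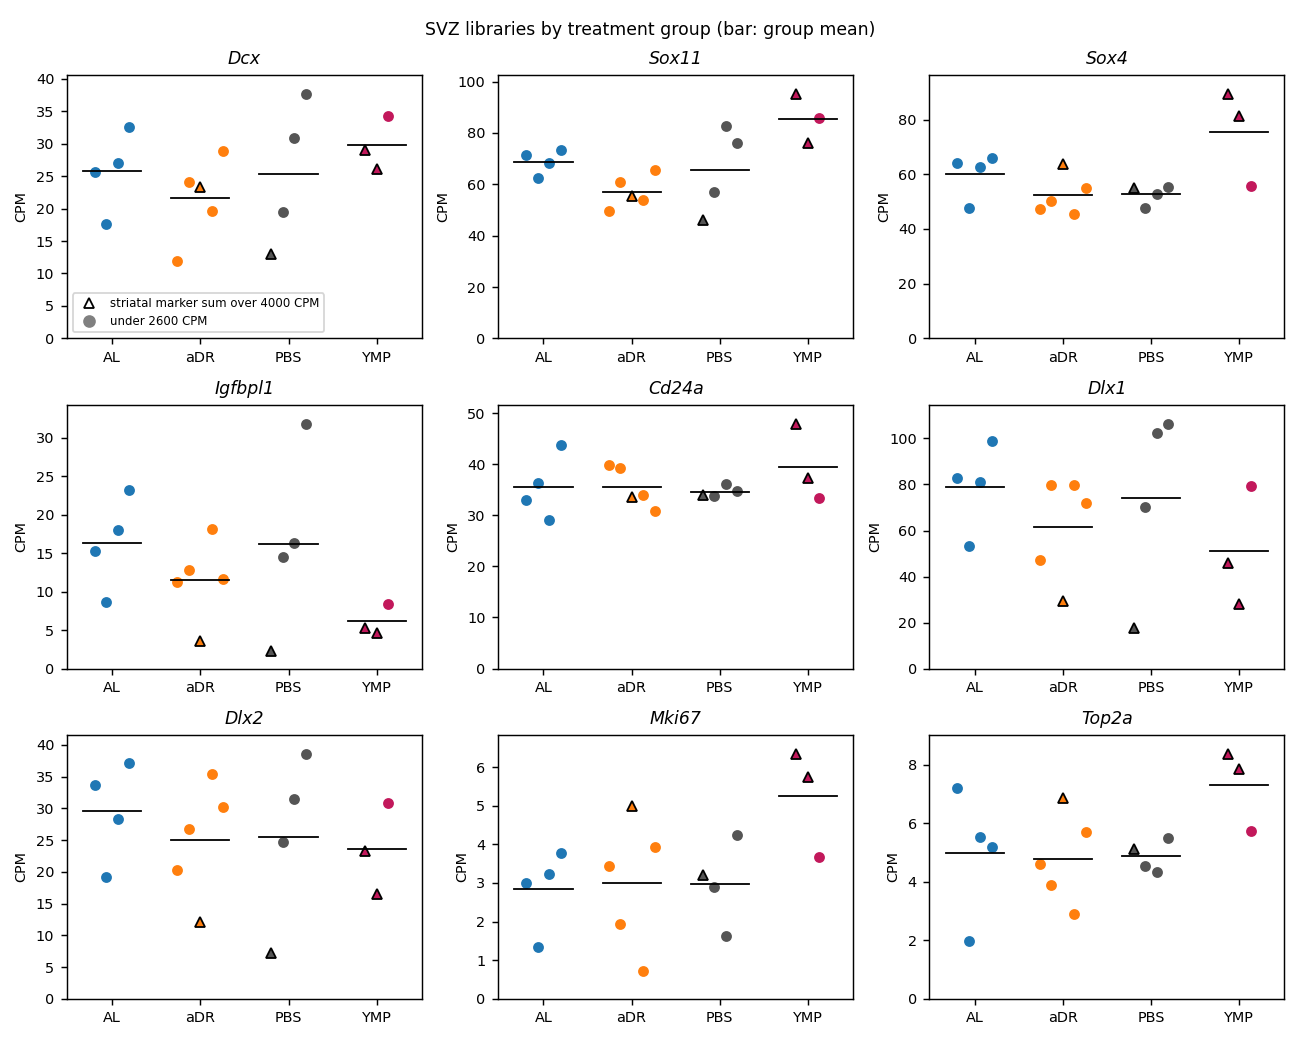
Level of each gene in the SVZ libraries in CPM, by group (AL, aDR, PBS, YMP); bars are group means, and triangles mark the 4 libraries with more than 4000 CPM of striatal neuron markers. The triangles are the lowest points for Igfbpl1 (2.33 to 5.31 CPM) but not for Mki67 (3.20 to 6.33).

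Dietary restriction and young plasma were next compared with their controls within each tissue, which asks whether either treatment of aged mice moves these genes. None of 99 diet tests of the 9 genes, over 15 brain regions and liver, was called by edgeR, and none of 98 plasma tests over 15 brain regions. At an unadjusted p under 0.05 there were 12 diet tests (12.1%, against 6.39% of all genes' tests) and 8 plasma tests (8.16% against 6.11%). DESeq2 called 3 diet tests, in liver and cerebellum, given below, and 0 plasma tests. Over all genes in the plasma experiment it called 3.25% in the SVZ, 1.7% in the corpus callosum and 0.627% in the caudate putamen. In the olfactory bulb and both hippocampal pieces of the plasma mice it called 0%. Few genes of any kind were called by edgeR. In diet these were 0.0212% in the SVZ, 0.22% in the olfactory bulb and 0.22% in the liver of the diet mice, 0.0146% in the caudate putamen, 0.251% in the motor and 0.202% in the visual cortex, 0.00707% in the choroid plexus, 0.0215% in the corpus callosum, 0.00714% in the medulla, 0.0524% in the cerebellum and 0% in both hippocampal pieces. In plasma these were 0% in the SVZ, olfactory bulb and hippocampal pieces, 0.00738% in the cerebellum and 0.184% in the corpus callosum.

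**Figure D4:**
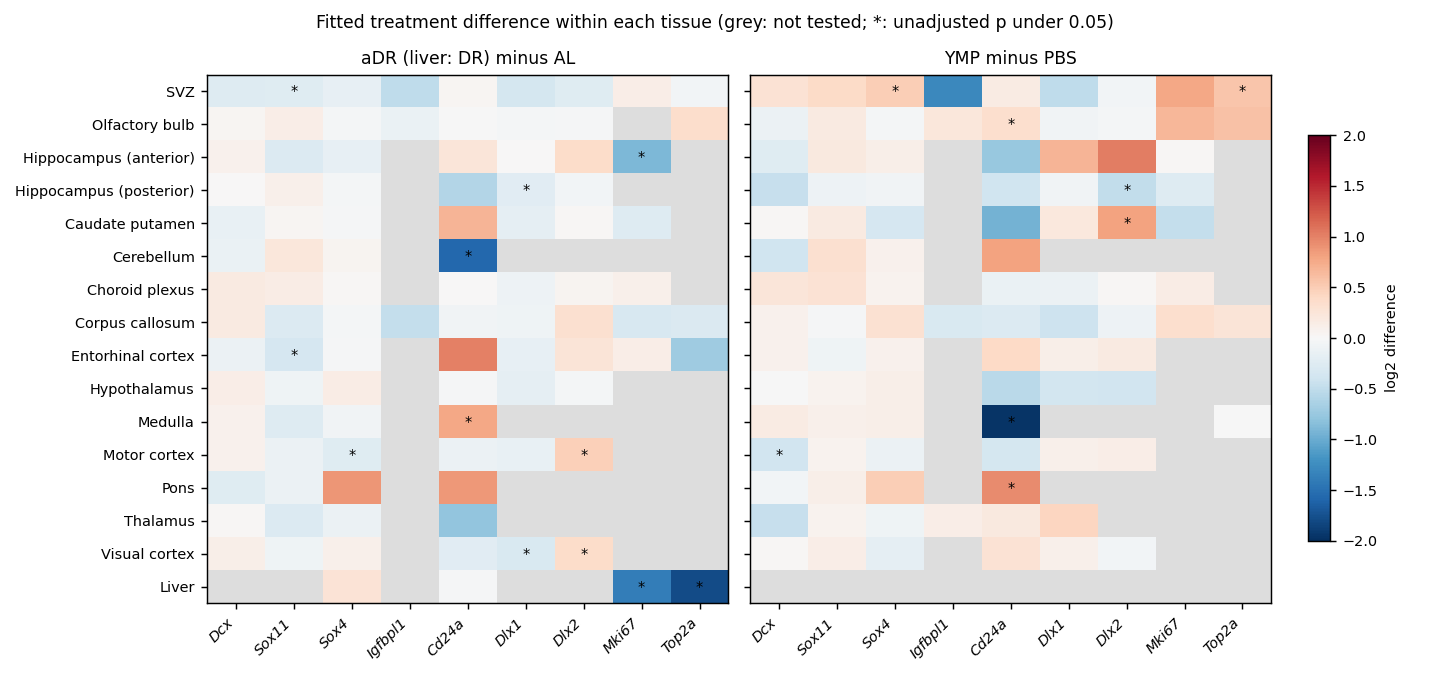
Fitted log2 differences of treated from control mice for the 9 genes in each tissue, diet left and plasma right, on a colour scale from -2 to 2; grey cells were not tested for low counts and asterisks mark an unadjusted p under 0.05. No cell was called by edgeR; among the darkest are Mki67 (-1.38) and Top2a (-1.79) in the liver of restricted mice.

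In the SVZ of the diet mice, 7 of the 9 genes lay below 0 (median -0.24, against 0.01 over all genes). Dcx differed by -0.25 ± 0.24, Igfbpl1 by -0.52 ± 0.39 and Dlx1 by -0.36 ± 0.28. Sox11 had the smallest p-value: 71.4, 62.6, 68.1 and 73.2 CPM in AL mice 63, 66, 68 and 69 and 49.6, 61.0, 55.4, 53.8 and 65.5 in aDR mice 61, 62, 64, 65 and 67. The groups overlap by one aDR mouse above the lowest AL mouse, and the difference was -0.25 ± 0.09 (adjusted p = 0.98, edgeR).

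In the olfactory bulb of the diet mice 8 genes were tested, and Dcx was 195, 211, 237 and 221 CPM in AL mice 63, 66, 68 and 69 and 237, 237, 225, 177 and 233 in aDR mice 61, 62, 64, 65 and 67. The groups overlap throughout, and the difference was 0.05 ± 0.08. Dcx in the posterior hippocampus was 20.7, 19.4, 7.82 and 19.5 CPM in the AL and 18.4, 14.8, 10.7, 18.5 and 22.3 in the aDR mice (0.01 ± 0.27), and in the anterior piece the difference was 0.09 ± 0.22. Neither direction held when mice were left out in turn.

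Mki67 in the anterior hippocampus was lower in every restricted mouse. It was 2.68, 4.42, 3.41 and 3.85 CPM in AL mice 63, 66, 68 and 69, and 1.80, 1.79, 1.72, 2.18 and 1.70 in aDR mice 61, 62, 64, 65 and 67. The groups do not overlap, as for 1.91% of all genes tested there. The difference of -0.90 ± 0.21 had an unadjusted p of 0.0014 and did not pass over all genes (adjusted p = 1.0 with edgeR). The counts behind it were 7 to 17 in the aDR and 18 to 40 in the AL libraries. Male PBS mice, at 1.58, 2.85, 2.55 and 1.80 CPM, overlapped both groups.

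The liver gave the largest diet differences of the dividing-cell genes among the tissues where their counts allowed a test. Mki67 was 7.44, 6.82, 12.6 and 6.68 CPM in AL mice 63, 66, 68 and 69 and 5.15, 2.97, 2.87, 4.00 and 1.02 in DR mice 61, 62, 64, 65 and 67. Top2a was 3.77, 3.55, 8.48 and 4.62 CPM in the same AL mice and 1.50, 2.16, 1.30, 1.43 and 0.72 in the same DR mice. Every DR liver lay below every AL liver for both genes, as the groups of 4.27% of all genes tested do in either direction. The differences were -1.38 ± 0.35 for Mki67 (adjusted p = 0.16) and -1.79 ± 0.34 for Top2a (adjusted p = 0.076), neither called by edgeR, while DESeq2 called both, at -1.38 (adjusted p = 0.024) and -1.81 (adjusted p = 0.0014), where it called 1.65% of all genes. Of 30 cell cycle genes, 16 were tested in liver and 0 called by edgeR; 13 lay below 0 and 6, of them 5 below 0, had an unadjusted p under 0.05 (9.09% of all genes did), with a median of -0.50 against 0.02 over all genes. Among them Cdc20, an activator of the anaphase complex, differed by -1.73, Ccnb2, a mitotic cyclin, by -1.29 and Kif11, a spindle motor, by -0.80, whereas Tk1, a thymidine kinase, lay above 0 at 0.49. The summed level of 5 hepatocyte markers was 72399 to 103522 CPM in the liver libraries, and Sox11 reached at most 1 count there.

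**Figure D5:**
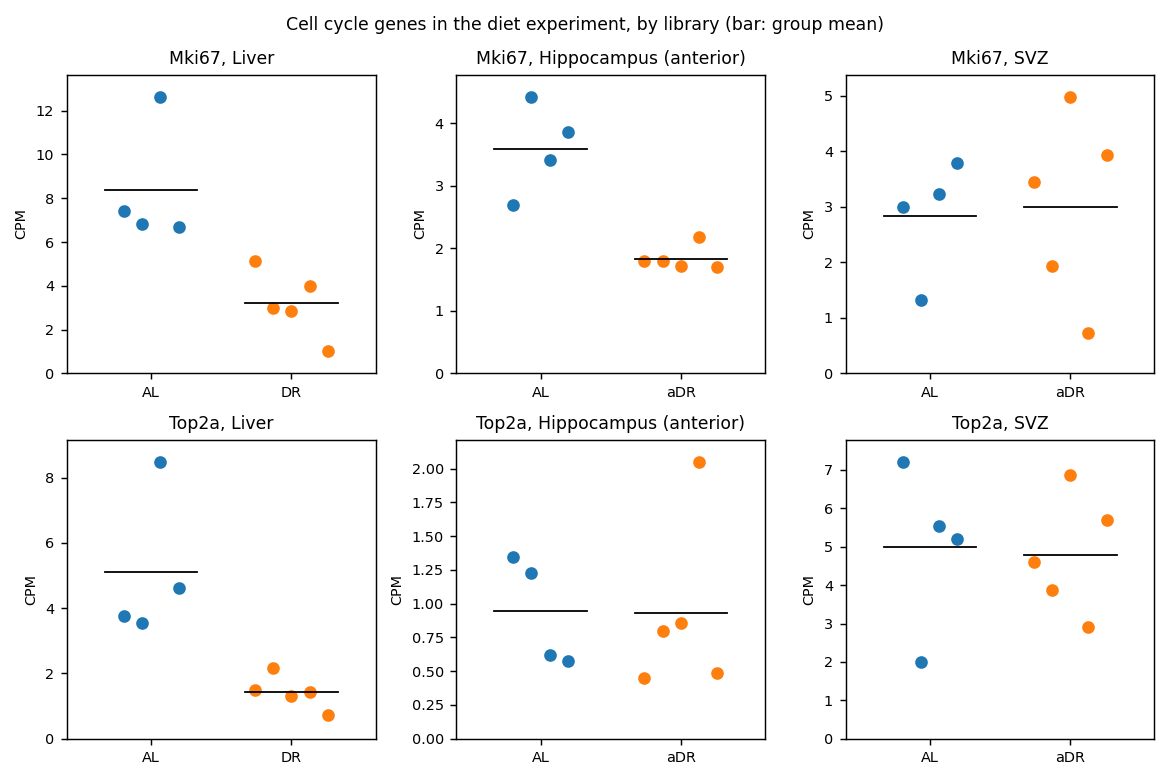
Mki67 and Top2a in liver, anterior hippocampus and SVZ of the diet mice, in CPM; points are mice and bars group means (AL, and aDR or DR). Both genes separate the groups in liver (Mki67 6.68 to 12.6 against 1.02 to 5.15 CPM), Mki67 alone does in the anterior hippocampus, and neither does in the SVZ.

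Cd24a in the cerebellum was the other diet test that DESeq2 called. It was 12, 8.03, 28.8 and 3.70 CPM in AL mice 63, 66, 68 and 69 and 2.98, 5.55, 4.10, 4.72 and 4.30 in aDR mice 61, 62, 64, 65 and 67. The groups overlap through AL mouse 69. The difference was -1.57 ± 0.45 with edgeR (adjusted p = 0.19, where 0.0524% of all genes were called) and -1.58 with DESeq2 (adjusted p = 0.034, where it called 1.31%). The summed level of 9 choroid plexus markers ran from 20.1 to 2289 CPM in the AL and from 22.4 to 35.1 in the aDR cerebella; the part of that in the result was not tested.

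Young plasma gave no called difference for these genes either. In the SVZ, Sox4 was 55.0, 47.8, 52.6 and 55.4 CPM in PBS mice 72, 76, 80 and 84 and 89.3, 81.2 and 55.8 in YMP mice 73, 77 and 81. Top2a was 5.11, 4.53, 4.34 and 5.50 CPM in the PBS and 8.35, 7.84 and 5.74 in the YMP mice. The groups do not overlap for these 2 genes, as for 14.1% of all genes tested, but mouse 81 lies close to the PBS mice in both. Sox4 differed by 0.49 ± 0.17 (adjusted p = 0.28, edgeR), Top2a by 0.55 ± 0.22 (0.33) and Mki67 by 0.77 ± 0.34 (0.37). Igfbpl1 lay the other way, at -1.28 ± 0.72 (0.49), as did Dlx1, at -0.50 ± 0.57 (0.78), and Dcx differed by 0.29 ± 0.32.

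Marker lists moved with that contrast too, none of their genes being called by edgeR. All 9 choroid plexus markers were below 0 in the YMP SVZ, each with an unadjusted p under 0.05 (median -8.04), 8 of 8 striatal markers were above 0 (median 0.42), and 8 of 10 ependymal markers were below (median -0.42). Of the neuroblast list 19 of 23 genes lay above 0 (median 0.22), of the cell cycle list 23 of 28 (median 0.44), and of the stem and progenitor list 6 of 18 (median -0.19), against a median of -0.01 over all genes. Without the 4 libraries with high striatal markers, which leaves 1 YMP library, assumed to vary like the others, Sox4 differed by 0.10, Top2a by 0.27, Mki67 by 0.36, Dlx1 by -0.22 and Igfbpl1 by -1.26, with 0 called.

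In the olfactory bulb of the plasma mice Dcx was 153, 173, 163 and 166 CPM in PBS mice 72, 76, 80 and 84 and 144, 153 and 151 in YMP mice 73, 77 and 81. The groups touch without overlapping, as for 7.53% of all genes tested, and the difference was -0.12 ± 0.06 (adjusted p = 0.57, edgeR). Cd24a differed by 0.33 ± 0.15 (adjusted p = 0.55), and by -0.12 without YMP mouse 81. Mki67 in the anterior hippocampus was 1.58, 2.85, 2.55 and 1.80 CPM in the PBS and 1.93, 2.33 and 1.93 in the YMP mice (0.02 ± 0.30), and Dcx differed there by -0.24 ± 0.30. In the posterior piece, Dcx was 7.61, 20.6 and 21.2 CPM in PBS mice 76, 80 and 84 and 17.6, 4.91 and 13.1 in the YMP mice (-0.46 ± 0.48). Dlx2 had the smallest p-value in that piece, with -0.50 ± 0.19 (adjusted p = 1.0). In the medulla, Cd24a was 61.4, 40.4, 49.5 and 144 CPM in the PBS mice and 14, 26.5 and 17.2 in the YMP mice. These groups do not overlap, as for 8.2% of all genes tested, and the difference of -1.96 ± 0.41 was not called (adjusted p = 0.44, where 0% of all genes were called); choroid plexus markers summed to 11.5 to 335 CPM in the PBS and 8.28 to 12.2 in the YMP medullae, and their part in the result was not tested.

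Over the 15 brain regions together, with 1 value per mouse tested in limma, no gene of the 9 was called for either treatment, beside 0.922% of all genes for diet and 0% for plasma. At an unadjusted p under 0.05 there was 1 for diet and 0 for plasma, beside 16.1% and 8.09% of all genes. That gene was Top2a, at -0.40 ± 0.12 in the restricted mice (adjusted p = 0.16). Dlx1 differed by -0.24 ± 0.12 and Igfbpl1 by -0.19 ± 0.14 for diet, and the plasma values ran from -0.22 ± 0.16 (Igfbpl1) to 0.14 ± 0.09 (Sox11). A fit of all libraries by voom with the mouse as a replicate block called Igfbpl1 for diet, at -0.46 (adjusted p = 0.034). Fabp7, a fatty acid binding protein of neural stem cells and astrocytes, was called for diet over the brain, at -0.60 ± 0.07 in the restricted mice (adjusted p = 0.011, limma). That call is of a single gene over all the regions and not of the SVZ. In the diet mice Fabp7 ran from 167 to 623 CPM in the olfactory bulb and from 8.42 to 32.7 in the SVZ. Whether an effect differed between regions was tested in edgeR, and 0 of the 9 genes were called for either treatment, with 0.0128% and 0.824% of all genes called; 2 genes for diet (Cd24a and Dlx2) and 1 for plasma (Cd24a) had an unadjusted p under 0.05, as 2.13% and 7.7% of all genes did.

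The genes most like each of 5 members over the brain were found from Pearson's r over 30 region means (15 regions in the AL and 15 in the PBS mice) among 15291 genes, a description with no test, since the regions share mice and depth. Dlx2 was most like Dlx1 (0.98) and Dlx1as (0.96), its neighbours on the chromosome, then Dlx5 (0.94) and Dlx6os1 (0.94). Dcx was most like Gng4 (0.94), a G protein subunit, then Ppfibp1 (0.90), Kif21b (0.88), Sik1 (0.88) and Kcnb2 (0.88). Sox4 was most like Wdr60 (0.94) and Sp8 (0.90), and Cd24a was most like Lgals3bp (0.87). Mki67 was most like Actr3 (0.87), which encodes an actin-nucleating protein, and no gene of the cell cycle list was among its 5. Among the 9 themselves, Dcx and Sox4 had an r of 0.87, Igfbpl1 and Top2a 0.80, Igfbpl1 and Cd24a 0.74 and Mki67 and Top2a 0.64, while Dcx and Mki67 had -0.03.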

How the data were processed

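RNA was measured in 238 libraries of brain regions and liver, made per the labels' protocols from column-purified RNA with Smart-Seq2 cDNA and Nextera XT tagmentation, without strand. The authors deposited one table of raw counts, with genes in rows and libraries in columns. The submitters' processing notes name Trim Galore 0.3.7, STAR 2.5.3a, DESeq2 and the build GRCm38; the counting program and annotation are not given in the sources used here. CPM were computed here from plain library totals. Positions and exon lengths are from the GENCODE annotation of GRCm38, and promoters are from RefSeq.

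Groups follow the labels for region, treatment and mouse, and no 2 libraries were identical. Tests within a region were quasi-likelihood tests in edgeR 4.0.16 under R 4.3.3. Low genes were removed by filterByExpr (minimum count 10, total 15), libraries were scaled by TMM, and p-values were adjusted over all genes tested (Benjamini-Hochberg). Region contrasts came from 1 fit per experiment of region-by-treatment groups, with both treatments weighted equally and no term for the mouse. Effects over the brain used limma 3.58.1 on 1 value per mouse, namely its coefficient when log2 CPM, with a prior count of 2, was fitted to region and animal. DESeq2 1.42.0 was an alternative, given the genes that pass edgeR's filter in region contrasts and all genes with a count within regions. Other alternatives were RLE size factors, no filter, the mouse as a replicate block, control mice only, no choroid plexus libraries, voom and each mouse left out in turn. The fits without the 4 SVZ libraries with high striatal markers were chosen after seeing the data.

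Per the labels, libraries with the same mouse number come from 1 animal, which pairs regions but not treatments. Deviations from group means had a median correlation of 0.335 between the SVZ and caudate putamen of the same diet mouse and -0.147 between different mice, and of 0.0324 and 0.0134 between the SVZ and olfactory bulb. On simulated data with known answers the test recovered 77% of genes changed by a log2 of 1 and 97% of those changed by 2 for diet in the SVZ, and 57% and 89% for plasma in the SVZ.

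The 9 genes and the lists were chosen with earlier results of these data known. Besides the 9, the text names up to 4 called genes per list and comparison with the smallest adjusted p, up to 3 defining markers, and the 5 genes most like each of 5 members; cell cycle genes named in liver, where none was called, were chosen after their values were seen. Some genes that this rule selects are not reported here.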

Additional observations from a re-analysis of the deposited data

Results flagged for a closer look

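In the 4 regions described and in liver, 102 groups of 4 or 5 libraries were checked for a single value that stands apart from the rest of its group, and 8 had one; chance alone gives about 1 in 20, or 5.1. Those in the olfactory bulb belong to aDR mouse 65, whose library there is one of those under 2 M counts. Its Dcx was 177 CPM (225 to 237 in the other aDR mice), its Dlx1 148 CPM (216 to 228) and its Dlx2 73.1 CPM (91.1 to 97.0). The anterior hippocampus of the same mouse was high in both dividing-cell genes, with 2.18 CPM of Mki67 (1.70 to 1.80 in the other aDR mice) and 2.05 CPM of Top2a (0.449 to 0.858). PBS mouse 76 had 4.17 CPM of Dlx2 in the anterior hippocampus, against 1.09 to 1.53 in the other PBS mice. AL mouse 68 was low in Dcx in the posterior hippocampus, with 7.82 CPM (19.4 to 20.7 in the other AL mice), and high in Mki67 in the liver, with 12.6 CPM (6.68 to 7.44).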

How the results depend on the processing

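Counts of called genes stayed within 1.5 times of the reported count in 374 results with 1 mouse left out and moved in 8. Under other alternatives they stayed in 185 results and moved in 6. A result here is a comparison under a setting, and a fit can give several. Most of them start from a count of 0, as all treatment comparisons do, and staying at 0 is counted as unchanged. The numbers that stayed thus say little of the region contrasts. The 6 were 1 gene called with DESeq2 for diet in the cerebellum, 2 with DESeq2 for diet in liver, 1 for diet over the brain with voom and the mouse as a replicate block, 3 with control mice only for the anterior hippocampus against the other regions in the plasma experiment, and, for the posterior against the anterior hippocampus in that experiment, 1 with control mice only and 1 with no filter. The causes were not tested. With 1 mouse left out, the counts for the posterior against the anterior hippocampus ran from 1 to 3 (diet) and from 0 to 3 (plasma). With the mouse as a replicate block in edgeR, the SVZ against the olfactory bulb in the plasma experiment gave 8 called genes in place of 7, and no other count changed.

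Signs turned in these cases, all of them small or from few counts. Against the other regions, Mki67 in the olfactory bulb of the diet mice was -0.17 with control mice only. Dcx for diet in the posterior hippocampus was -0.00102 with DESeq2. Igfbpl1 for plasma over the brain was 0.024 with voom and the replicate block. With 1 mouse left out, Mki67 in the olfactory bulb ran from -0.10 to 0.35 (diet) and from -2.03 to 1.66 (plasma), Dcx in the posterior hippocampus against the other regions from -0.0041 to 0.30 (plasma), and Top2a in the anterior hippocampus from -0.57 to 0.017 (plasma). Treatment differences with 1 mouse left out ran, for Dcx and diet, from -0.057 to 0.22 in the anterior hippocampus, from -0.20 to 0.13 in the posterior and from -0.0028 to 0.10 in the olfactory bulb; for plasma, Cd24a in the olfactory bulb ran from -0.12 to 0.50 and Mki67 in the anterior hippocampus from -0.15 to 0.22. Mki67 and Top2a rest on few counts in many brain libraries, and Igfbpl1 on few or none outside the SVZ and olfactory bulb, so depth limits what can be said of them there.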
